A study of Rattus norvegicus with 4 samples.

Results

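The 4 miRNAs described here are rno-miR-10a-5p, rno-miR-10b-5p, rno-miR-99a-5p and rno-miR-125b-5p, taken by their names on the array from the 719 rat miRNAs it carries. They were measured in exosome RNA (exosomes are small vesicles shed by cells) from the serum of male rats with hepatocellular carcinoma (HCC, the main cancer of the liver). There was 1 array for each of 4 groups: naive rats (day 0), and rats with light (day 35), moderate (day 49) and severe (day 49) disease. Naive rats were not injected, and the other groups received an HCC cell line that the labels do not name, whereas the design text of the series speaks of tumour exosomes in 1 dose and spells the strain as baffolo. The design text also mentions 4 experiments per time, but a single array stands for each group here, and whether its RNA came from pooled rats is not stated in the labels. Without replicate arrays no p-value can be given, and each error below is a standard error (SE) over replicate spots of 1 array, which covers spot noise only. Against the naive array, disease and day change together and cannot be told apart. In serum, fewer vesicles carrying a miRNA and less of it per vesicle cannot be told apart either.

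miRNAs are short RNAs that pair with messenger RNAs mainly through their seed (bases 2 to 8 from the 5′ end) and lower their output. The miR-10 genes sit inside the Hox clusters, the gene arrays that pattern the body axis, and are used by vessel wall and stromal cells, and miR-10b is studied in tumour invasion. miR-99a and its relative miR-100 are known to restrain mTOR, a kinase of cell growth, and miR-125b, the mammalian relative of worm lin-4, acts in blood cell formation and differentiation. Genes of the miR-99/100 and miR-125 families lie in shared loci with let-7 genes.

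The mature sequences show how alike the members are, and they are printed 5′ to 3′ from RefSeq (GRCr8) with the seed in capitals. Of the 4 members, 3 matched a mature entry. miR-100-5p is added as the relative of miR-99a-5p.
miR-10a-5p: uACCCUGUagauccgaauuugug
miR-10b-5p: cCCUGUAGaaccgaauuugugu
miR-125b-5p: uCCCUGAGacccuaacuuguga
miR-100-5p: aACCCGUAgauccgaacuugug
The Mir99a hairpin is shown with capitals on ACCCGUA, the seed of miR-100-5p, which it holds 1 time.
Mir99a hairpin: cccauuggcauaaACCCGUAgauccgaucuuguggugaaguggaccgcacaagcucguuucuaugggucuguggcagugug
Over the 21 bases that miR-10a-5p and miR-10b-5p share in register, 20 are identical, and the substitution is U12A, counted from 1 at the 5′ end of miR-10a-5p. The RefSeq entry of miR-10b-5p starts at position 3 of miR-10a-5p, so its bases 2 to 8 read CCUGUAG. The hairpin has UA just before that start, as miR-10a-5p has at its own start, and counted from there the seed would be ACCCUGU, that of miR-10a-5p. miR-10a-5p and miR-100-5p, the relative of miR-99a-5p, match at 19 of 22 bases. miR-10a-5p and miR-125b-5p match at 14 of 21 bases. The probe sequences were not used here. Whether probes for miR-10a-5p, miR-10b-5p and miR-99a-5p bind each other's targets was not tested.

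In RefSeq (GRCr8, plus strand) miR-10a-5p lies at chr10:81779730-81779752, and the nearest coding gene is Hoxb4. miR-10b-5p lies at chr3:80035886-80035907, within the span of Hoxd4. The Mir99a hairpin lies at chr11:29687392-29687472 and the Mir125b2 copy of miR-125b-5p at chr11:29732588-29732609, both within the long noncoding gene LOC103693508. Mirlet7c1 is the miRNA gene nearest to Mir99a. The letters of miR-125b-5p also occur 1 time in the Mir125b1 hairpin on chromosome 8, so its signal cannot be assigned to 1 locus.

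The scanner software detected 122 to 176 miRNAs per array, most on the moderate array, which was also the brightest. Signals were scaled by dividing each array by the 75th percentile of the 111 miRNAs that every array detected (naive 666, light 356, moderate 954 and severe 415 intensity units). Among probes for which a share of 0.5 or more of the spots were well above background, the dimmest signal of each array, called the floor, was 13.1 to 16.0 intensity units. All 4 members are dim, and several of their values lie near this floor. The red-cell list, of miRNAs taken as markers of red cells, had 4 of 5 members on the array. Of these, 3, 3, 4 and 4 were detected for naive, light, moderate and severe, which does not show where the RNA came from. The severe array gave 0.615 times the labelling spike-in signal of the naive array and had 525 outlier spots against 386.

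miR-10a-5p was higher on both arrays of day 49 than on the naive and light arrays. Its summed signal, unscaled, was 53.2 ± 0.77 for naive, 22.8 ± 1.05 for light, 167 ± 2.27 for moderate and 210 ± 1.57 for severe (18 to 20 spots each). The severe array was the highest and the light array the lowest, also after scaling, but the light signal was only 1.50 times the floor. miR-10b-5p read 32.0 ± 1.25, 18.3 ± 0.68, 107 ± 1.72 and 21.7 ± 0.92 for naive, light, moderate and severe. Here the moderate array stood alone, and the severe array read close to the light one. miR-99a-5p read 53.7 ± 1.11, 19.3 ± 0.98, 107 ± 1.30 and 190 ± 1.64. Its order over the arrays was that of miR-10a-5p, with the light signal at 1.27 times the floor. No direction from naive to light is given for either. miR-125b-5p read 41.7 ± 1.02 on the naive array and 77.0 ± 1.39 on the moderate array, and it was not detected on the light and severe arrays, where its sums were 1.02 ± 0.95 and 4.41 ± 0.65. On those arrays 0 of its 20 spots were well above background.

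**Figure D1:**
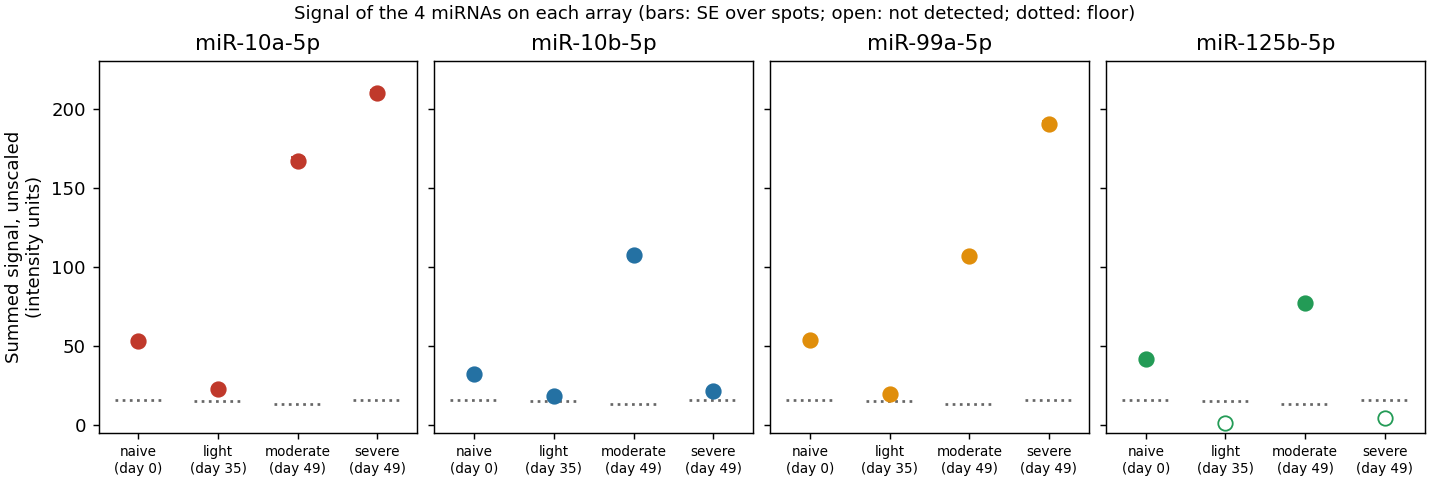
Summed, unscaled signal (intensity units) of each of the 4 miRNAs for naive, light, moderate and severe, 1 point per array, with SE over spots as bars (mostly smaller than the points), open points where the miRNA was not detected and the floor as dotted lines. miR-10a-5p and miR-99a-5p are highest on the severe array (210 and 190), whereas miR-10b-5p and miR-125b-5p are highest on the moderate array (107 and 77.0).

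Each member has 2 probes of 10 spots, one brighter than the other, which gives a check within the array. The brighter probe of miR-10a-5p had unscaled spots from 38.3 to 46.6 on the naive array and from 160 to 176 on the severe array. Its dimmer probe averaged 13.5 ± 0.69, 5.82 ± 0.72, 47.1 ± 1.31 and 42.8 ± 0.84 for naive, light, moderate and severe. This probe was therefore brighter on both day 49 arrays too, but unscaled it was lower on the severe than on the moderate array, where the brighter probe was higher. After scaling, severe stood above moderate in both probes of miR-10a-5p, at log2 1.68 ± 0.03 in the brighter and 1.06 ± 0.05 in the dimmer. Both probes of miR-99a-5p gave nearly the same value there, 2.05 ± 0.02 and 1.96 ± 0.06. The dimmer probes of miR-10b-5p and miR-125b-5p had 0 of 10 spots well above background on every array, with means between −5.24 and 5.93. The values of these 2 miRNAs thus rest on 1 probe each. The dimmer probe of miR-99a-5p had 0 of 10 spots well above background on the naive and light arrays, and that of miR-10a-5p had 2 and 0 of 10. On those arrays these members too were read by the brighter probe almost alone, so 2 probes bear on them only for severe against moderate. The brighter probe of miR-10b-5p averaged 34.5 ± 1.05, 19.4 ± 0.48, 101 ± 1.54 and 22.8 ± 0.87 for naive, light, moderate and severe, unscaled. Its spots on the moderate array, the brightest array, ran from 93.3 to 109. Such spot ranges show the spread within 1 array and not that between rats.

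**Figure D2:**
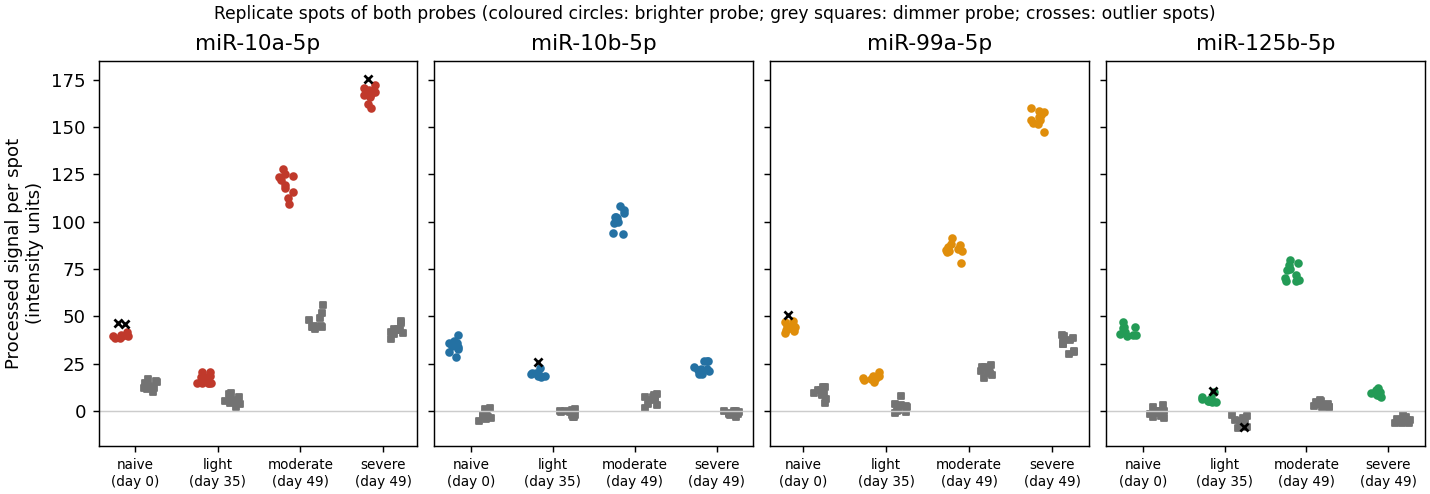
Processed signal of every replicate spot (intensity units) for the brighter probe (coloured circles) and the dimmer probe (grey squares) of each miRNA on each array, with outlier spots as crosses. The dimmer probes of miR-10b-5p and miR-125b-5p stay near 0 on every array, and both probes of miR-10a-5p and of miR-99a-5p are brighter on the moderate and severe arrays than on the naive one.

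On the light array (day 35) the members stayed within 2-fold of naive, with 0 of 4 higher and 0 of 4 lower. Over all miRNAs measured on at least 1 of these arrays, 1.56% were higher by 2-fold or more and 0.781% lower, bounds included. miR-10a-5p differed by log2 −0.32 ± 0.07, miR-99a-5p by −0.58 ± 0.08 and miR-10b-5p by 0.10 ± 0.08. The median over the 117 miRNAs measured on both arrays was 0.27, so all 3 lay below it, and miR-99a-5p was in place 9 from the bottom. miR-125b-5p was detected on the naive array only, at least 1.47-fold lower on the light array. Without scaling and with labelling spike-ins, miR-10a-5p, miR-99a-5p and miR-125b-5p were past 2-fold lower here, as were 34 and 33 of all 128 miRNAs. miR-125b-5p also was with the total signal of the scanner software and with a lower floor, the dimmest summed signal of any detected miRNA. Normexp is a background model fitted to the raw spot medians, with 50 intensity units then added to every spot. With it the direction turned for miR-10a-5p (0.39) and miR-99a-5p (0.37). The added constant is larger than the summed light signals of both, and each array is divided by its own percentile afterwards. By this construction the values of dim miRNAs are drawn toward the ratio of the scale factors of the arrays. The size of this part in the turn was not measured. miR-10b-5p ran from −0.80 to 0.49 and was above 0 in 4 of 11 alternatives. The light signals of these 3 miRNAs are 1.21 to 1.50 times the floor, and no direction is given for them at day 35.

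On the moderate array (day 49) the miR-10 pair was higher than on the naive array, and miR-99a-5p and miR-125b-5p differed less. miR-10b-5p was 2.34-fold higher (log2 1.23 ± 0.06) and miR-10a-5p 2.19-fold higher (1.13 ± 0.03), in places 5 and 7 of 126 miRNAs measured on both arrays. miR-99a-5p differed by 0.47 ± 0.03 and miR-125b-5p by 0.37 ± 0.04, against a median of 0.22 over those 126. Thus 2 of 4 members were at least 2-fold higher, where 5.42% of all miRNAs were, and 0 were lower, where 1.20% were. The difference of miR-10a-5p minus that of miR-10b-5p was −0.09 ± 0.07 on the log2 scale. The stroma and vessel wall list (miR-143-3p, miR-145-5p, miR-199a-3p, miR-199a-5p and miR-214-3p), whose cells also use miR-10, had a summed scaled signal of 0.323, 0.382, 0.887 and 0.113 times the 75th percentile for naive, light, moderate and severe. Of its 5 members, 3 were detected on every array and were at least 2-fold higher on the moderate array than on the naive one, while miR-145-5p and miR-199a-5p were detected on no array. The lowest values of those 3 over the alternatives were 0.80 for miR-143-3p, 0.33 for miR-199a-3p and 0.18 for miR-214-3p. The skeletal muscle list summed to 1.89, 1.16, 3.60 and 0.0516 on the same arrays, with 3, 2, 4 and 1 of its 4 members detected. The part of these lists in the values of the members was not tested. The values of the miR-10 pair lie close to 2-fold. The call of miR-10a-5p ended with median scaling (0.99), quantile normalization (0.94), the brightest probe (0.96) and normexp (0.24), and that of miR-10b-5p with the brightest probe (0.93), the total signal of the scanner software (0.93), the series value table (0.91) and normexp (0.08). The brightest-probe setting also takes its scale factors from those probes alone. With the reported scale factors the brighter probes of miR-10a-5p and miR-10b-5p stood at 1.07 ± 0.03 and 1.03 ± 0.05.

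On the severe array (day 49) miR-10a-5p and miR-99a-5p were far above naive, and miR-10b-5p was not. miR-10a-5p was 6.33-fold higher (log2 2.66 ± 0.02) and miR-99a-5p 5.68-fold higher (2.51 ± 0.03), in places 6 and 8 of 109 miRNAs measured on both arrays. miR-10b-5p differed by 0.12 ± 0.08, in place 42, and the median of all was −0.11. miR-125b-5p was at least 1.62-fold lower, and past 2-fold without scaling (log2 −1.38), with the total signal of the scanner software (−2.38) and with the lower floor (−2.56). Of the 4 members 2 were at least 2-fold higher, where 24.1% of all miRNAs were, and 0 were lower, where 18.2% were. The severe array thus differed from naive in many miRNAs, and the members are not set apart by passing 2-fold there. miR-10a-5p and miR-99a-5p were past 2-fold in all 11 alternatives that gave values, from 1.34 and 1.27 with normexp to 2.84 and 2.96 in the series value table.

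The pair of near-identical miR-10 sequences parted on the severe array. The log2 difference of miR-10a-5p from naive exceeded that of miR-10b-5p by 2.54 ± 0.09, a 5.83-fold change of their ratio. Dividing an array by 1 factor cancels in this ratio, but an additive error of background does not. miR-10b-5p read only 1.35 times the floor on the severe array and 2.05 times on the naive array. Against the light array the gap was 2.97 ± 0.11 and against the moderate array 2.64 ± 0.07, while on the moderate array against naive it was −0.09 ± 0.07. Over the alternatives the gap of severe against naive ran from 1.01 with normexp to 2.67, above 0 in each. A ratio of this kind shows that the miRNAs differed unequally, and does not show that either stayed level. The comparisons share arrays, so these gaps are not independent of each other.

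**Figure D3:**
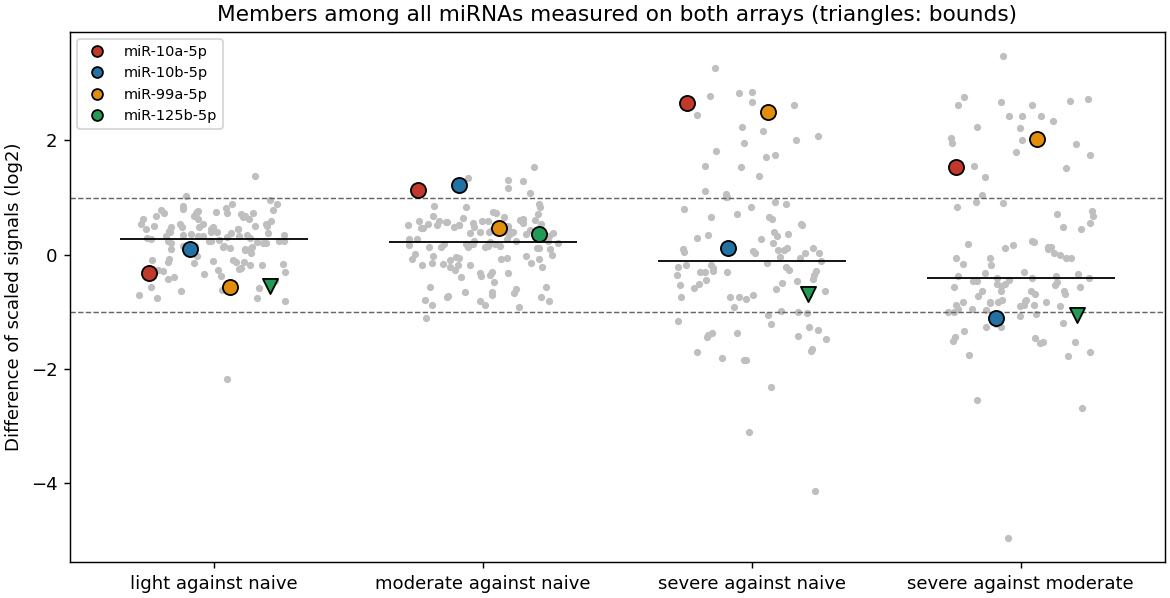
Differences of scaled signals (log2) in 4 comparisons for the 4 miRNAs (coloured circles, triangles for bounds of miR-125b-5p) among all other miRNAs measured on both arrays (grey), with the median of all as a line and 2-fold as dashed lines. miR-10a-5p and miR-99a-5p lie among the upper values on the severe array (2.66 and 2.51 against naive), and miR-10b-5p lies near the median there (0.12).

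Set against the moderate array at the same day, the severe array split the members evenly. miR-99a-5p was 4.10-fold higher (log2 2.03 ± 0.02) and miR-10a-5p 2.89-fold higher (1.53 ± 0.02), in places 15 and 23 of 115 miRNAs. miR-10b-5p was 2.15-fold lower (−1.11 ± 0.07) and miR-125b-5p at least 2.10-fold lower. Among all miRNAs, 17.8% were higher by 2-fold or more and 17.8% lower, and the median was −0.41. miR-10b-5p and miR-125b-5p lie close to 2-fold, and their calls ended with median scaling (−0.97 and −0.93), quantile normalization (−0.94 and −0.82) and the brightest probe (−0.91 and −0.96). The call of miR-10b-5p also ended with the total signal of the scanner software (−0.93) and in the series value table (−0.64), and its direction turned with normexp (0.25). miR-10a-5p lost its call without scaling (0.33) and with labelling spike-ins (0.86), and miR-99a-5p lost its call without scaling (0.83).

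Against the light array, 3 of 4 members were at least 2-fold higher on the moderate array, miR-10a-5p at 2.74-fold (log2 1.45 ± 0.07), miR-10b-5p at 2.18-fold (1.13 ± 0.06) and miR-99a-5p at 2.07-fold (1.05 ± 0.08). They took places 3, 6 and 8 of 117 miRNAs, and miR-125b-5p was at least 1.90-fold higher. Among all miRNAs 4.82% were higher by 2-fold or more and 5.42% lower. On the severe array miR-99a-5p was 8.47-fold and miR-10a-5p 7.91-fold higher than on the light array (log2 3.08 ± 0.07 and 2.98 ± 0.07), in places 2 and 3 of 104. miR-10b-5p differed there by 0.02 ± 0.08, and miR-125b-5p was measured on neither array. In that comparison 22.6% of all miRNAs were higher by 2-fold or more and 29.3% lower. The light signals of these miRNAs are 1.21 to 1.50 times the floor, so a small error of background would move these folds. With normexp the 3 members turned to −0.14, −0.41 and −0.45 for moderate against light, and miR-10a-5p and miR-99a-5p dropped below 2-fold for severe against light (0.95 and 0.90). Normexp adds 50 intensity units to every spot, more than these summed light signals, so its values do not gauge an error of background. For moderate against light, miR-10b-5p also ended below 2-fold with the total signal of the scanner software (0.96) and miR-99a-5p with quantile normalization (0.85). Other alternatives gave larger values. Without scaling miR-10a-5p, miR-10b-5p and miR-99a-5p stood at 2.88, 2.55 and 2.47 for moderate against light, and with labelling spike-ins at 3.03, 2.70 and 2.63. miR-125b-5p was past 2-fold higher in 6 of 9 alternatives there, with bounds from 0.73 to 2.51.

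**Figure D4:**
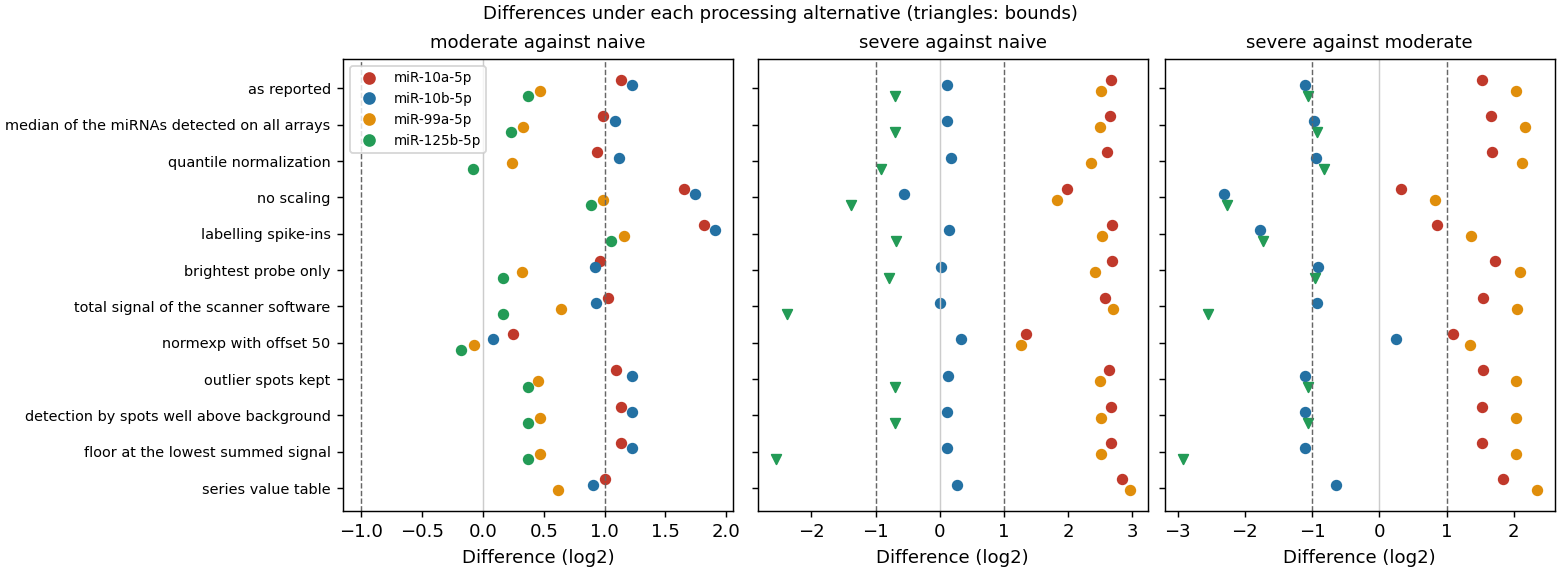
Log2 differences of the 4 miRNAs under the reported setting and the 11 alternatives, for moderate against naive, severe against naive and severe against moderate, with 2-fold as dashed lines and triangles for bounds. miR-10a-5p and miR-99a-5p stay beyond 2-fold for severe against naive in every setting. For severe against moderate, miR-10b-5p runs from −2.31 to 0.25 and the bounds of miR-125b-5p from −2.93 to −0.82.

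The miRNAs whose profiles over the 4 arrays were closest to each member were found by the largest gap of log2 scaled signals, each miRNA centred on its own mean, among 103 others measured on all arrays. For miR-10a-5p the closest was miR-99a-5p, with a largest gap of 0.39, followed by miR-877 (0.51) and miR-212-3p (0.55). For miR-99a-5p the closest was miR-10a-5p, followed by miR-483-5p (0.55) and miR-877 (0.55). For miR-10b-5p they were miR-214-3p (0.32), miR-497-5p (0.36) and miR-30a-5p (0.50), and miR-10a-5p came in place 98 with a gap of 2.04. Ranked from miR-10a-5p, the same gap put miR-10b-5p in place 52. Only 4 arrays enter this measure, so it is a description of these arrays. miR-125b-5p was measured on 2 arrays and was not ranked.

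Of 19 related miRNAs (the other arms and family members, let-7 partners and other Hox-cluster miRNAs), 18 were on the array and 14 of these were detected on none. Among the undetected were the opposite arms miR-10a-3p, miR-10b-3p, miR-99a-3p, miR-125b-1-3p and miR-125b-2-3p, the family members miR-99b-5p and miR-125a-5p, and the Hox-cluster miRNAs miR-196a-5p, miR-196b-5p, miR-196c-5p and miR-615. miR-100-5p was detected on the moderate array alone, at 16.8, near the floor. miR-125a-3p, the arm opposite miR-125a-5p, read 108, 51.4, 128 and 300 intensity units for naive, light, moderate and severe. Its severe array was the highest and stood log2 2.16 ± 0.03 above naive and 2.42 ± 0.03 above moderate, on the side of miR-10a-5p and miR-99a-5p.

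let-7c-5p, a regulator of differentiation that is also encoded beside miR-99a and miR-125b, read 277, 98.6, 310 and 53.0 for naive, light, moderate and severe. Its severe array was the lowest, at log2 −1.71 ± 0.04 from naive. let-7a-5p, which is also encoded in the locus of miR-100, read 451, 163, 368 and 89.6 and stood at −1.65 ± 0.03. Over the 11 alternatives let-7c-5p stayed between −2.39 and −0.70, let-7a-5p between −2.33 and −0.95 and miR-125a-3p between 1.06 and 2.34. On the severe array the miRNAs encoded in the miR-99a locus thus went apart, with miR-99a-5p higher, let-7c-5p lower and miR-125b-5p not detected. let-7c-5p and miR-125b-5p are also encoded elsewhere, as is let-7a-5p outside the locus of miR-100, and the near-identical let-7 sequences can share probes. Of the 3 related miRNAs measured on both the severe and naive arrays, 1 was higher by 2-fold or more and 2 were lower, with a median of −1.65. Over all miRNAs 24.1% were higher there and 18.2% lower, bounds included.

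The other marker lists moved in their own ways over the arrays. The red-cell list summed to 52.6, 67.9, 57.8 and 41.3 times the 75th percentile for naive, light, moderate and severe, a sum made mostly of miR-451-5p and miR-16-5p. miR-451-5p, the dominant red-cell miRNA, differed by log2 −0.30 ± 0.01 between severe and naive, and miR-16-5p by −0.71 ± 0.02. The other members of the list went the other way, on the side of miR-10a-5p and miR-99a-5p. miR-144-3p, made from the same locus as miR-451, read 169, 234, 212 and 371 intensity units for naive, light, moderate and severe, and stood 3.53-fold higher on the severe than on the naive array (log2 1.82 ± 0.02, and 1.14 or more in all 11 alternatives). miR-144-5p was at least 3.91-fold higher there, with log2 values or bounds of 0.77 to 3.62 over 10 alternatives. Thus 2 of the red-cell list were at least 2-fold higher for severe against naive, where 24.1% of all miRNAs were, and 0 were lower, where 18.2% were. The platelet and endothelium list summed to 9.94, 13.8, 15.4 and 5.27, with 3, 2, 3 and 2 of its 3 members detected, and was lowest on the severe array. That sum is almost all miR-223-3p, a miRNA of platelets and myeloid cells (6534 of 6619 intensity units on the naive array). miR-126a-3p, the endothelial marker, differed from naive by −0.64 ± 0.05 on the light array, where the sum was higher, and by −0.98 ± 0.06 on the severe array. Over the alternatives its values ran from −1.54 to 0.27 and from −1.67 to 0.03. The hepatocyte list summed to 1.73, 0.365, 1.05 and 1.04, with 2, 1, 2 and 2 of 2 detected, and the lymphocyte list to 1.33, 1.37, 1.13 and 0.316, with both members detected on each array. The part of these cells in the members' values was not tested.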

How the data were processed

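Exosome RNA from serum was labelled with Cy3 and hybridised to 4 Agilent arrays, 1 per group, which share 1 slide and scan time per the file headers. The deposited intensity values per spot were made by the authors with Agilent Feature Extraction 10.7.3.1, protocol miRNA_107_Sep09, on a grid annotated on rn4, per the file headers, and the submitters' processing notes name version 9.1. The labels' labelling protocol describes amplified cRNA, which is unexplained. The spot signal was, per the file headers, background-subtracted and not scaled. Deposited files also hold detection calls and a total intensity per miRNA, which the series value table repeats for 3 of the 4 members, to within 0.0424%.

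Outlier spots were left out (386 to 525 of 14380 per array), spots averaged per probe, probes summed per miRNA, and sums scaled before log2 was taken. A miRNA was measured where it was detected and at or above the floor. With 1 array of a pair unmeasured, the fold is given as at least N-fold, taken against that array's floor or the miRNA's own signal there, whichever was higher. A floor from 1 probe is set against a sum over probes, which makes such folds loose bounds. The 4 members were always named, and list members and the 3 closest profiles per member could be. The members, lists and alternatives were chosen with earlier results of these data known. The number of arrays limits precision. Normexp used limma 3.58.1 with an offset of 50 intensity units added to every spot. The script was tested on simulated data. Sequences are from RefSeq GRCr8.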

Additional observations from a re-analysis of the deposited data

How the results depend on the processing

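Of 12 alternatives, 11 gave values. Scaling by the 75th percentile over all miRNAs was not run because that percentile was below 0 on the light array (−0.74). The series value table lacks miR-125b-5p. No paired analysis was possible because each group has 1 array, and no array could be left out. For severe against naive, the count of members past 2-fold higher was 2 in all 11. Other counts differed as follows, and the cause was not tested where the construction of the setting does not show it. For moderate against naive, 2 members were higher as reported, 1 with median scaling, quantile normalization, the total signal of the scanner software and the series value table, 4 with labelling spike-ins, and 0 with the brightest probe and normexp. For severe against moderate, 2 were higher as reported, 0 without scaling and 1 with labelling spike-ins. In that comparison 2 were lower as reported, 1 with the total signal of the scanner software, and 0 with median scaling, quantile normalization, the brightest probe, normexp and the series value table. For light against naive, 0 were lower as reported, 3 without scaling and with labelling spike-ins, and 1 with the total signal of the scanner software and with the floor at the lowest summed signal. Without scaling and with labelling spike-ins, 34 and 33 of all 128 miRNAs were lower there. For severe against naive, 0 were lower as reported, and 1 without scaling, with the total signal of the scanner software and with the lower floor, each time miR-125b-5p. For moderate against light, 3 were higher as reported, 4 with median scaling, without scaling, with labelling spike-ins, with the brightest probe and with the lower floor, 2 with quantile normalization and 0 with normexp. For severe against light, 2 were higher as reported and 0 with normexp. Signs of called values turned with normexp only, to −0.14, −0.41 and −0.45 for miR-10a-5p, miR-10b-5p and miR-99a-5p in moderate against light and to 0.25 for miR-10b-5p in severe against moderate. That setting adds 50 intensity units to every spot before the arrays are scaled. By construction this draws the folds of dim miRNAs together, toward the ratio of the scale factors of the arrays.

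Over all miRNAs, the counts at least 2-fold higher and lower were 9 and 2 for moderate against naive, 33 and 25 for severe against naive and 30 and 30 for severe against moderate. Without scaling they were 48 and 1, 23 and 53, and 17 and 102, with medians of 0.74, −0.79 and −1.61. With labelling spike-ins they were 70 and 0, 33 and 25, and 24 and 73. For light against naive they were 2 and 1, and 0 and 34 without scaling, for moderate against light 8 and 9, and 119 and 0, and for severe against light 30 and 39, and 33 and 24. With normexp they were 0 and 1, 0 and 0, and 15 and 5 for light, moderate and severe against naive.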
